A study of Mus musculus with 4 samples.

Results

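The 8 genes described here encode DNA topoisomerases of the mouse and 2 enzymes that free DNA from trapped topoisomerase protein: Top2b and Top2a (type II), Top1, Top1mt, Top3a and Top3b (type I), and the repair genes Tdp1 and Tdp2. They were chosen by name among 21774 protein-coding genes with RefSeq bounds on the assembled chromosomes of GRCm38.p6, and all 8 were found. The measurement was CTCF occupancy, by chromatin immunoprecipitation and sequencing, in wild-type cortical neurons cultured from embryonic day 16 Swiss-Webster mice for 13 days. All samples share this description; the common protocol text also mentions etoposide, a topoisomerase II poison, but the labels give these samples no treatment. Chromatin came from 2 immunoprecipitations labelled as biological replicates, with 2 inputs, and the data are 1 joint list of 33820 peaks matched between the replicates, with 0.05 as the limit on their irreproducible discovery rate (IDR). There was 1 condition, so no groups of samples were compared and no test was made: each value stands beside the same value over all protein-coding genes. Library depth is unknown from the list, and the list holds no expression values with which to check the cell type.

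Topoisomerases cut DNA, let strands pass or rotate, and reseal it, which removes the supercoils and tangles that transcription and replication create. Type II enzymes cut both strands. TOP2A is known from dividing cells, where it untangles chromosomes, while TOP2B is the type II enzyme of non-dividing cells such as neurons, where it acts at active genes and is found beside CTCF and cohesin. The type I enzymes cut 1 strand: TOP1 relaxes supercoils in the nucleus, TOP1MT in mitochondria, TOP3A dissolves joined DNA molecules in nucleus and mitochondria, and TOP3B also acts on RNA. When an enzyme stays covalently bound to its cut, TDP1 removes the remnant of TOP1 and TDP2 that of the type II enzymes. CTCF is a zinc finger protein that, with cohesin, marks the borders and anchors of chromatin loops.

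The RefSeq promoter table of GRCm38.p6 matched 5 of the 8 genes: Top1, Top2a, Top2b, Top3b and Tdp1. The 250 bases before the listed start of transcription are shown for both genes that had a CTCF peak over this stretch, Top2b (chr14:16364956-16365205, plus strand) and Top3b (chr16:16870486-16870735, plus strand), and for Top2a (chr11:99024190-99024439, minus strand), the counterpart of Top2b, which had none. Each reads 5′ to 3′ toward the start. Capitals mark CCCTC, the word that CTCF is named for, on either strand, so that GAGGG is its reverse complement.

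Top2b: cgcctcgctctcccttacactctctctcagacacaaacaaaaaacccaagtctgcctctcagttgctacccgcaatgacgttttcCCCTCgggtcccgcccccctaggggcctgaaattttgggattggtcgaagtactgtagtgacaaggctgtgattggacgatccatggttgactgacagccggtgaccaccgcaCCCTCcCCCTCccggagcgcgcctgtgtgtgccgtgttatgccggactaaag

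Top3b: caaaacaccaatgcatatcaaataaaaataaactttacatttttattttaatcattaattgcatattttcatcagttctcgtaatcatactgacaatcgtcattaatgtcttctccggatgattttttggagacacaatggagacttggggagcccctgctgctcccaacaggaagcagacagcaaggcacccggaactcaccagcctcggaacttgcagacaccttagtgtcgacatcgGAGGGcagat

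Top2a: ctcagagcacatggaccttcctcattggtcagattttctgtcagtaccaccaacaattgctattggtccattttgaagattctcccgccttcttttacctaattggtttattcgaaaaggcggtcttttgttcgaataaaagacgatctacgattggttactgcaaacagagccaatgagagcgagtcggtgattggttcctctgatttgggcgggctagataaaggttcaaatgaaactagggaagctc

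The Top2b stretch held CCCTC at 3 positions, starting at bases 86, 199 and 205, and the Top3b stretch held it once, at base 241. Top2a, Top1 and Tdp1 held none. Of 32851 promoters in the table, 60.5% held CCCTC at least once in these 250 bases and 13.7% held it 3 times or more, so its presence is common. It was chosen after the sequences were seen. A longer word closer to the CTCF motif (CC, any 3 bases, AG, any 2 bases, GGC) and its shorter core CAGNNGGC, which overlaps it, were searched on both strands of the whole window of 300 bases. Neither occurred in any of the 5 genes, while 8.61% and 25.9% of all promoters held them. Of the 1379 protein-coding genes with a summit inside this window, 33.2% held the longer word, against 7.84% of the 16113 without one. Top3b was 1 of the 1379. The Top2b stretch had 57.6% G and C, that of Top3b 42.0% and that of Top2a 43.6%, against a median of 52.4% over all promoters.

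CTCF sat at an end of 3 of the 8 genes, Top2b, Top1mt and Top3b, and inside 5, Top2b, Top2a, Top1, Top1mt and Tdp1. A gene end here means within 1 kb of either bound, and a peak is placed by its summit. The share at an end was 37.5% (exact Clopper-Pearson 95% interval 8.52 to 75.5, counting error only), against 29.2% of all protein-coding genes. By length it was 29.6% of genes of 10 to 30 kb, the class of Top1mt, Top3b and Tdp2, and 33.7% of genes of 30 to 100 kb, the class of the other members. Inside the gene beyond 1 kb, 62.5% of the members had a peak (interval 24.5 to 91.5), against 35.5% of all genes. The latter share was not split by length. Counting ends and interiors together, 6 of 8 genes had a peak (75%, interval 34.9 to 96.8). The share was 51.6% of all genes, 51.6% of the shorter and 70.6% of the longer class. Top3a and Tdp2 had none. All 8 had a peak in the flanks from 1 to 100 kb, as did 85.8% of all genes. In all, 3 peaks lay at ends and 8 elsewhere inside, and 48 more lay in the 100 kb flanks. All protein-coding genes had a mean of 5.11 and a median of 4 flank peaks, and the members a median of 5. At an end or inside, the mean per gene was 0.761 in the shorter class and 1.38 in the longer. The members' share at ends is near that of genes in general, and so is not a result about topoisomerases. The single genes differed widely from each other, as the map of peaks around the 8 genes shows.

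**Figure D1:**
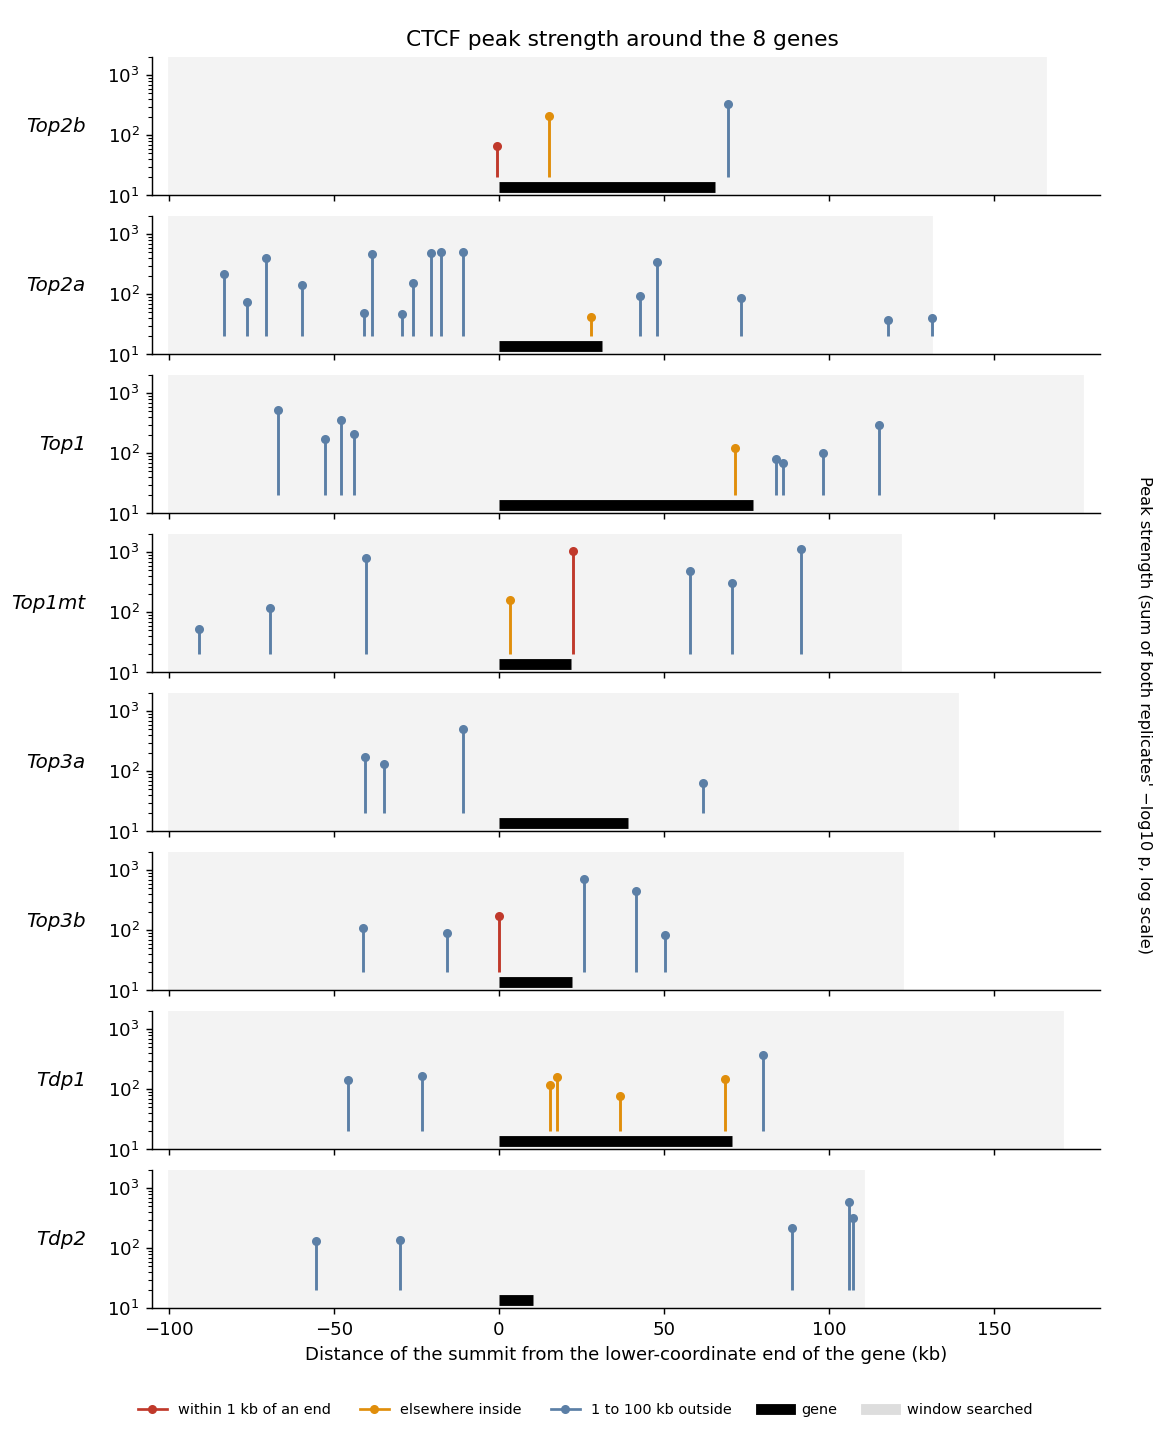
Strength of each CTCF peak (vertical log axis, −log10 p summed over the replicates) against its distance in kb from the lower-coordinate end of each gene (black bar), with 100 kb on either side shaded. Top2b has 3 peaks in its window and Top2a 17, and Top3a and Tdp2 have none at an end or inside.

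Peak strength, as deposited by the authors, adds up the −log10 p of the matched peaks in the 2 replicates; its median over the list was 165.5. The list does not say which labelled replicate a column belongs to, so the values are given as first and second replicate column, whose medians were 30.87 and 128.88.

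Top2b (chromosome 14, 16365206 to 16430787, 65582 bp, plus strand) carried 1 peak at its start and 1 inside. The start peak (16364310 to 16366370) was broad, 2061 bp against a list median of 1123, and covered the whole stretch printed above. Its summit lay 507 bp before the start, and the summits of the separate replicates stood at −499 and −565 bp from it. A summit within 1 kb of the listed start was present for Top2b and Top3b, 2 of the 5 members in the promoter table, and for 25.7% of the protein-coding genes in it. The first replicate column had 32.2 and the second 33.6, a strength of 65.8, and the authors' deposited table gives it an IDR of 0.00646. Only 18% of all peaks and 22.2% of peaks at gene ends were weaker. The replicates nearly tied, although 90.7% of peaks in the list were stronger in the second column. The value stood above the median in the first column and below it in the second.

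The peak inside Top2b (16380082 to 16380897) was stronger, 209.7, with 23.7 and 186.0 in the replicate columns. Its summit was at the same base in both replicates, 15.2 kb from the start or 23.2% of the way along the gene. The second column exceeded the first by 2.97 on the log2 scale, whereas at the start peak the difference was 0.06. For comparison, the median of this difference was 0.40 at ends of protein-coding genes (quartiles −0.08 and 1.44) and 1.95 inside them (1.13 and 2.59). Together these made 2 peaks at an end or inside, and 38.5% of the 5063 genes of 30 to 100 kb had as many or more.

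Beyond Top2b the window was nearly empty. The only flank peak (16434000 to 16435124, strength 339.1, with 47.4 and 291.7 in the columns) lay 3.75 kb past the upper end, inside Rarb, a retinoic acid receptor gene that runs toward Top2b and ends 52 bp from it. The next summits were 122.2 kb below the lower end and 144.9 kb above the upper end. The other neighbour, Ngly1, which encodes a deglycosylating enzyme, had no peak at an end or inside.

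Top2a (chromosome 11, 98992947 to 99024199, 31253 bp, minus strand) had no peak at either end and 1 inside. That peak (99020383 to 99021218) was among the weakest of the list, 41.8, with 9.46 and 32.3 in the replicate columns, and its IDR in the authors' deposited table, 0.0437, was close to the threshold. Only 4.14% of peaks were weaker. It lay 3.37 kb inside the end where transcription starts, outside the 1 kb window. At an IDR of at most 0.01, which left 44.8% of all genes with a peak at an end or inside, Top2a had none. Its distance of 3366 bp and the 2124 bp of a Tdp1 peak were the nearest outside the 1 kb window, and those of Top2b (507 bp) and Top1mt (651 bp) the farthest within it.

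Around Top2a peaks were dense. Its 100 kb flanks held 16 peaks, 11 below the gene and 5 above, and 1.72% of protein-coding genes had as many or more. Those of Top2b held 1, and 85.8% of genes had as many or more and 22.4% as few or fewer. The flanks cover the same length of DNA for every gene, and the exact Poisson 95% intervals were 9.15 to 26.0 for Top2a and 0.0253 to 5.57 for Top2b, which do not overlap. These intervals treat summits as independent, which neighbouring summits are not, and the difference was not tested. The flank peaks of Top2a ranged in strength from 37.9 to 513.3, with a median of 148.2. The nearest stood 10.7 kb below, at an end of the connexin gene Gjd3 (504.2, with 254.2 and 249.99 in the columns), and 11.4 kb above (95.6, with 12.2 and 83.4). The strongest, 513.3, lay 17.4 kb below, at an end of Rara, another retinoic acid receptor gene. The neighbour above, Igfbp4, which encodes a binding protein of insulin-like growth factors, had an end peak of 348.7.

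At their ends and inside, the intervals of the 2 type II genes overlapped. Top2b had 3.05 peaks per 100 kb (exact Poisson 95% interval 0.369 to 11) and Top2a 3.20 (0.0810 to 17.8), against 2.52 for all genes of 30 to 100 kb together. Both peaks of Top2b exceeded the only peak of Top2a in both replicate columns, although in the second column the Top2b start peak (33.6) and the Top2a peak (32.3) were close.

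**Figure D2:**
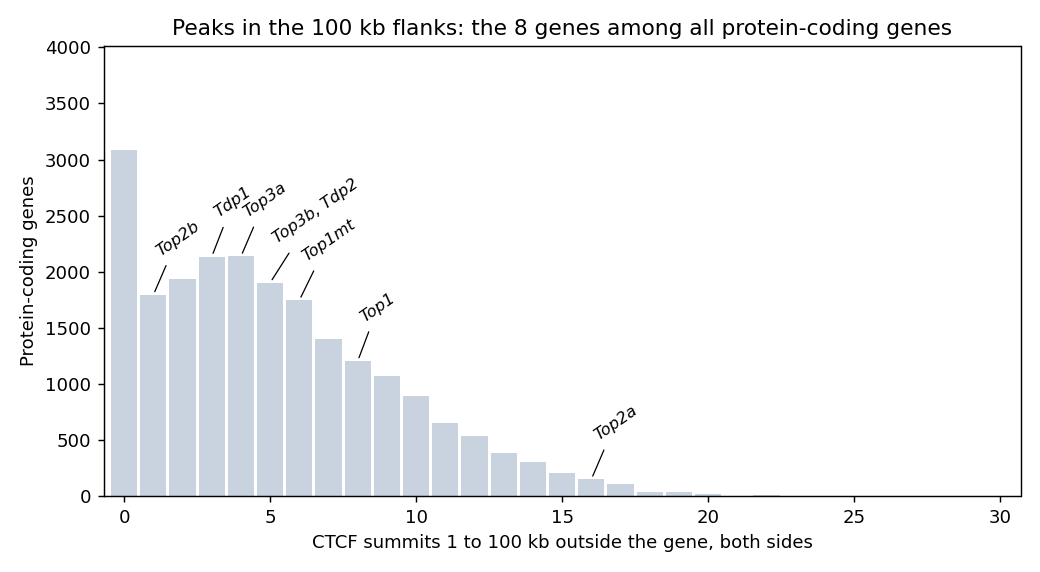
Number of protein-coding genes (vertical axis) by the number of CTCF summits 1 to 100 kb outside the gene on both sides (horizontal axis), with the 8 genes marked. Top2b stands at 1 and Top2a at 16, and the other genes between 3 and 8.

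Among the type I genes, Top1mt had by far the strongest peak at an end or inside, and Top1 only an internal one below the list median. Top1mt (chromosome 15, 75657033 to 75678800, 21768 bp) carried a peak at its upper-coordinate end (75678448 to 75680948) with a strength of 1055, above 98.2% of the list and 94.4% of peaks at gene ends. The replicate columns gave 234.6 and 820.2, and their summits lay 491 and 640 bp outside the end. A second peak, 3.39 kb inside the lower end, was weaker (157.9, with 17.1 and 140.9). As many or more peaks were present in 18.2% of the 6428 genes of 10 to 30 kb. The flanks held 6 peaks, and 40.4% of protein-coding genes had as many or more. The strongest (1114, with 581.0 and 532.8) was 69.8 kb above the gene, at an end of Mafa, which encodes a transcription factor known from pancreatic beta cells. The nearest on the lower side (792.4) was 40.3 kb away inside Zfp41, the neighbour below, and the nearest on the upper side beyond the end peak (487.8) was 36.3 kb away at an end of Rhpn1, the neighbour above.

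Top1 (chromosome 2, 160645897 to 160722764, 76868 bp, plus strand) had no peak at an end. Its only internal peak (160716990 to 160717866) lay 93.2% of the way along the gene, 5.26 kb before the upper end. It reached 120.9, with 12.7 and 108.2 in the replicate columns, and 41.9% of peaks inside genes were weaker. Its density of 1.3 per 100 kb (exact Poisson interval 0.0329 to 7.25) was the lowest of the 6 genes with a peak. The flanks held 8 peaks, 4 on each side, and 25.9% of protein-coding genes had as many or more. Those below stood 43.9 to 67.0 kb from the gene and had strengths of 172.8 to 531.0. The nearest on the upper side was 7.22 kb away (80.6), and one at an end of the neighbour Plcg1, a phospholipase gene, reached 70.0. All 4 peaks on the side of the Top1 start were above the list median, and of those past its upper end only one (298.1, 38.2 kb away) was.

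The 2 type IA genes differed from each other. Top3b (chromosome 16, 16870722 to 16892986, 22265 bp, plus strand) had 1 peak (16870302 to 16871350), centred 19 bp before its lower bound and at −33 bp from the listed start, at base 218 of the stretch printed above. The replicate columns gave 65.7 and 105.3, a strength of 171.0, near the middle of peaks at gene ends, of which 51.5% were weaker. The summits of the replicates lay at −13 and −24 bp from the bound. Of protein-coding genes with a promoter entry, 7.88% had a summit inside the window. The nearest peak above, 3.49 kb past the upper end, sat at an end of Ppm1f, a protein phosphatase gene, and was stronger (705.9, with 354.8 and 351.1). Beyond the start peak, the nearest below, 15.7 kb from Top3b, reached 89.9, and the neighbour on that side, Vpreb1, a gene of immature B cells, had no end peak. The summits of the start peak and of the peak past the upper end were 25.8 kb apart. Since the start summit lay 19 bp outside the bound, Top3b counted as a gene with no summit between its bounds. Of all such protein-coding genes 11.1% lay in a shorter stretch, and 6.91% of those of 10 to 30 kb.

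Top3a (chromosome 11, 60738209 to 60777365, 39157 bp) had no peak at an end or inside, as did 29.4% of genes of 30 to 100 kb. The nearest summits stood 10.9 kb below, at an end of Flii (513.8, with 243.8 and 270.02 in the columns), and 22.8 kb above, inside Shmt1 (63.6, with 15.8 and 47.8). The stretch of 72.9 kb between them held Top3a and its neighbours Mief2, whose product acts in mitochondrial fission, and Smcr8, and was shorter than the median of 138.7 kb for genes of this length class with no summit inside. The strong peak was on the lower side and the weak one on the upper. The flanks held 4 peaks in all, the median for protein-coding genes.

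The repair genes differed in their count of peaks and in length. Tdp1 (chromosome 12, 99884515 to 99955223, 70709 bp, plus strand) held 4 peaks inside, the most of the 8 genes, and 6.77% of genes of 30 to 100 kb had as many or more. Their density was 5.66 per 100 kb (exact Poisson interval 1.54 to 14.5). None lay within 1 kb of an end, the closest being 2124 bp from the upper one. Along the gene they stood at 22.1%, 24.96%, 52.0% and 97.0% of its length. None was strong: 118.6 (37.9 and 80.7 in the columns), 159.0 (16.4 and 142.6), 77.8 (13.4 and 64.5) and 149.3 (60.4 and 88.9). Of peaks inside genes, 41.2%, 51.7%, 25.9% and 49.4% were weaker than these, in the same order. All 4 were below the list median of 165.5, so Tdp1 had none among the stronger peaks, which marked 33% of all genes at an end or inside. The first of them had replicate summits 610 bp apart, against a median of 29 bp over the list. The nearest summit above, 9.28 kb past the upper end, was stronger (370.4) and lay inside Kcnk13, a potassium channel gene, and the nearest below, 23.3 kb away (168.1), lay inside Efcab11. Efcab11 begins 73 bp from Tdp1 on the opposite strand, and no peak lay at this shared pair of starts.

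Tdp2 (chromosome 13, 24831659 to 24842153, 10495 bp) is the shortest of the 8 and had no peak, like 48.4% of genes of 10 to 30 kb. For so short a gene the exact Poisson interval was 0 to 35.1 per 100 kb, which contains that of Tdp1. It lay in a stretch of 118.9 kb without a summit, longer than that of 63.0% of genes of its length class with no summit inside. The flanking peaks were 30.0 kb below, at an end of BC005537 (137.3, with 66.4 and 70.8 in the columns), and 78.4 kb above, inside Aldh5a1 (219.3, with 23.4 and 195.9). The strongest in the window (590.7, with 286.6 and 304.1) was 95.5 kb above, where ends of Aldh5a1 and Gpld1 meet. The neighbours Acot13 and D130043K22Rik had no peak at an end or inside.

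**Figure D3:**
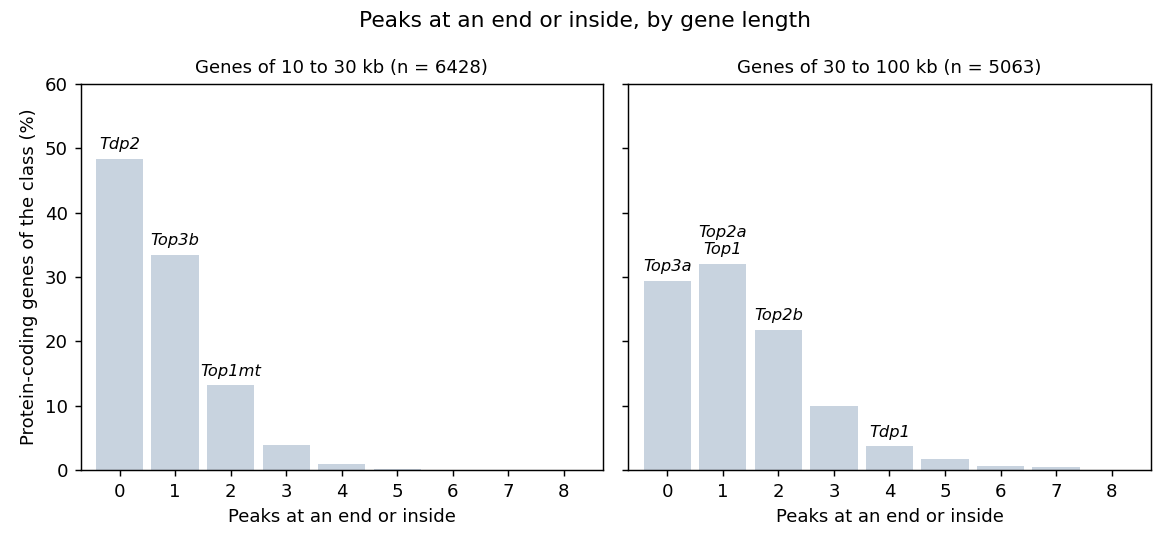
Percent of protein-coding genes (vertical axis) by the number of CTCF peaks at an end or inside (horizontal axis), for the 2 length classes that hold the 8 genes; 1 gene of 30 to 100 kb lies beyond the axis. Tdp1 with 4 peaks stands in the upper tail of its class, and the other genes hold 0 to 2.

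The replicate columns differed in size from peak to peak. Of the 11 peaks at an end or inside, all were higher in the second replicate column than in the first, by 0.06 to 3.12 on the log2 scale. So were 90.7% of all peaks in the list, so this direction is not particular to these genes. The smallest differences were those of the Top2b start (0.06), the last Tdp1 peak (0.56) and the Top3b start (0.68), and the largest those of peaks inside Tdp1 (3.12), Top1 (3.09) and Top1mt (3.04). The Top1mt end peak, at 1.81, lay above the upper quartile of peaks at gene ends (1.44). Only the Top1mt end peak exceeded the list median in both columns. The Top2b and Top3b start peaks and 2 Tdp1 peaks exceeded only the median of the first column, and the peak inside Top2b, one inside Top1mt and one inside Tdp1 only that of the second. Those of Top2a and Top1 and the third of Tdp1 exceeded neither. Depth per library is unknown, and its part in the difference between columns was not tested.

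**Figure D4:**
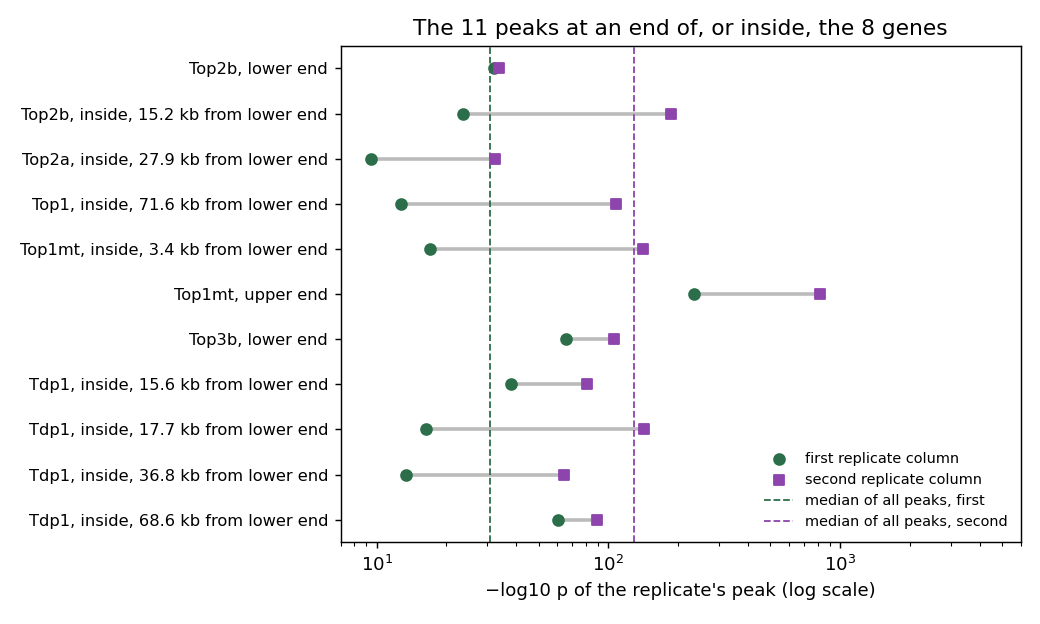
The −log10 p of each replicate (horizontal log axis) for the 11 peaks at an end of or inside the 8 genes (rows); dashed lines are the medians over the whole list. The 2 values nearly coincide at the Top2b start, and only the Top1mt upper end lies beyond both medians.

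Of the 8 genes, 4 share an end with a neighbouring protein-coding gene, that is, lie within 1 kb of a bound of it: Top2b with Rarb, Top3a with Smcr8 (160 bp apart), Tdp1 with Efcab11, and Tdp2 with Acot13 (170 bp apart). None of these 4 shared ends had a peak (exact Clopper-Pearson interval 0 to 60.2%), against 24.6% of shared ends of all protein-coding genes. Of the 12 unshared ends 3 had one, 25% (interval 5.49 to 57.2), against 14.2% of all unshared ends. With so few ends neither share can be set apart from that of genes in general.

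A list of 28 genes that act with these enzymes gave a similar share. Of these, 11 had a peak at an end (39.3%, exact Clopper-Pearson interval 21.5 to 59.4, against 29.2% of all protein-coding genes). At an end or inside 19 had one (67.9%, interval 47.6 to 84.1), against 51.6% of all and 70.6% of genes of 30 to 100 kb. Both intervals include the share of all genes, and the list was not matched for length. The strongest end peak was at Nbn (1463, with 657.3 and 805.5 in the columns), which encodes a subunit of the complex that senses double-strand breaks. Next came Mus81 (1096, with 463.4 and 633.0), a nuclease gene for branched DNA. Xrcc6 (413.1), which encodes a subunit of the Ku dimer that binds broken ends, Ercc4 (388.4), a nuclease gene of excision repair, and Nhej1 (303.5), a gene of end joining, followed. By role, 3 of 5 genes of single-strand break repair, which follows TDP1, had an end peak, and 3 of 6 of end joining, which follows TDP2. The share of all protein-coding genes was 29.2%. In single-strand break repair, the end peak of Parp1 was weak (52.2, with 30.5 and 21.7 in the columns). Of 8 nucleases 3 had an end peak, and of 3 partners of TOP3A only Rmi1 (109.3, with 47.7 and 61.7). Tdrd3, whose product binds TOP3B, Zfp451, whose product works with TDP2, and the meiotic Spo11 had no end peak. Inside, Tdrd3 had 2 peaks and Zfp451 had 1.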

How the data were processed

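CTCF was profiled in 2 immunoprecipitations and 2 inputs of cultured neurons. The builds mm10 and GRCm38.p6 and the tools MACS2, BWA, SAMtools, Trimmomatic and FastQC are named, per the submitters' processing notes. Their versions, the peak threshold and how inputs were used: not given in the sources used here. As deposited, the table has 20 columns in the layout of the IDR program, with peaks called per replicate and then joined. Its −log10 p values for each replicate, their sum (checked in every row) and the −log10 of the global IDR, capped at 5, were made by the authors, as was the deposited score, a rescaled IDR that was not used. The deposited score and strengths depend on library depth, which is unknown. The strengths were used only within this list, to describe peaks and, in the alternatives, to select its stronger part.

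Summits were the joint start plus the joint offset. RefSeq genes came from a GRCm38.p6 table without strand; strand and promoter sequences came from the RefSeq promoter table. Rows with scaffold positions (348 genes, 113 protein-coding) were left out. Summits were counted within 1 kb of either gene bound, elsewhere inside, and up to 100 kb outside. The 95% intervals are exact (binomial or Poisson) and hold counting error alone. Members and lists were chosen with earlier results of these data known. The text names all 8 members, every peak of theirs at an end or inside, the nearest and the strongest flank peaks, nearest neighbours, and partners with the 5 strongest end peaks; other genes named, among them Rmi1, Tdrd3, Zfp451 and Spo11 and genes that hold a named peak, were added to explain a count or a position. The counting code was tested on simulated data of 300 genes and placed every peak as a plain loop did. Alternatives changed the peaks used, their placement and the windows. Software was scipy 1.17.1, pandas 2.3.3 and numpy 2.4.6 under Python 3.11.15, with matplotlib 3.10.9 for plots.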

Additional observations from a re-analysis of the deposited data

How the results depend on the processing

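The 3 genes with an end peak became 1 with end windows of 500 bp (Top3b, while 20.4% of protein-coding genes had one) and 5 with windows of 5 kb (51.3%). In the stronger part of the list by the second replicate column (values over its median) they became 1, Top1mt (13.1%). The 6 genes with a peak at an end or inside became 3 by that column (31.9% of protein-coding genes) and 3 by strength (33%), shares near that of the members. The 11 peaks at an end or inside became 3 by strength, 5 by the first column and 4 by the second. The 59 peaks within 100 kb became 29 by strength, 35 and 29 by the columns, and 100 with flanks of 200 kb. At an end or inside, Top2a went from 1 to 0 in these 3 subsets and at an IDR of 0.01, and Top2b from 2 to 1 in these 3 and with windows of 500 bp. All other planned settings stayed within 1.5 times of these counts, as did placement by either replicate's own summit, which was added after the data were seen. Flank counts of Top2a and Top2b, 16 and 1, were 10 and 1 at 50 kb, 27 and 5 at 200 kb, 7 and 1 by strength, 9 and 1 by the first column, 7 and 1 by the second, and 11 and 1 at an IDR of 0.01. They were 16 and 2 with end windows of 500 bp, and 16 and 0 with 5 kb. The Top2b start peak moved into the flank with the former, and the peak past its upper end moved out with the latter.

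Leaving out a replicate was not possible, since the list holds only peaks found in both. No paired analysis was possible because the list gives no values for the inputs and does not tie its columns to replicate numbers. With depth unknown, the lack of a peak means only that no match between replicates passed.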

Other observations

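Nuclear receptor genes near Top2a and Top2b were looked at after the values had been seen. Rara and Thra lie on the lower side of Top2a on chromosome 11, with Gjd3 between Rara and Top2a, and Rarb adjoins Top2b on chromosome 14, with Thrb farther out. The summits inside Rara are 6 of the 11 flank peaks below Top2a, and 1 of those inside Rarb is the only flank peak of Top2b, so these densities partly restate the flank counts. Rara, of 47143 bp, held 6 summits between its bounds, 12.7 per 100 kb (exact Poisson 95% interval 4.67 to 27.7). Rarb, of 651493 bp, held 3, or 0.46 per 100 kb (0.0950 to 1.35). Thra held 3 in 28231 bp, 10.6 per 100 kb (2.19 to 31.1), and Thrb 4 in 380873 bp, 1.05 per 100 kb (0.286 to 2.69). The pair on chromosome 11 is shorter and denser in both cases, but the intervals of Thra and Thrb overlap. At an end or inside, genes of 10 to 30 kb, the class of Thra, together held 4.11 peaks per 100 kb. Genes of 30 to 100 kb, the class of Rara, held 2.52 and genes of 300 kb and over 0.865. These class values also count summits up to 1 kb outside the bounds, which the receptor values do not. Gene length moves with the difference between the pairs, and its part was not tested.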
